A study of Mus musculus with 4 samples.

Results

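The genes described here form MHC class II molecules, act in or regulate their peptide loading, or, for Ciita, act in their transcription. They are the chain genes H2-Aa, H2-Ab1 and H2-Eb1, the peptide exchange genes H2-DMa and H2-DMb1, their regulator H2-Oa, the invariant chain gene Cd74 and the transactivator gene Ciita. They were given as a list of 8 symbols, and the brightest array feature of each symbol was kept. Of the 8, 7 were measured, each by 1 feature, out of 19505 gene symbols and 22206 gene features on the array. Cd74 was not analysed here. The samples were CD8+ T cells that had been taken from C57/BL6 mice (spleen and lymph nodes), with no genetic change named in the labels. All cultures were stimulated for 3 days with beads carrying antibodies to CD3 and CD28, in medium with IL-2. The 2 control cultures were left untreated, and the 2 spermidine cultures had 25 µM spermidine, a natural polyamine, in the medium. RNA from each culture (250 ng) was hybridised to a Clariom S mouse array. The labels call the arrays of a group biological replicates but name no animals, so all errors and p-values measure the spread between these arrays only.

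MHC class II molecules are pairs of an alpha and a beta chain that show peptides from the endosomal route to CD4 T cells. In the mouse they are made mainly by B cells, dendritic cells, macrophages and thymic epithelium. The invariant chain fills the peptide groove during assembly, H2-DM removes its last fragment and edits the peptide load, and H2-O holds H2-DM back. Transcription depends on CIITA, a coactivator that binds no DNA itself and is recruited by factors sitting on the S, X and Y boxes of class II promoters. Human T cells switch these genes on when activated, whereas mouse T cells are known for making little or none of their own class II.

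Class II promoters are known for the X and Y boxes, and the windows of 5 members are shown here to see where such letters stand and where they do not. RefSeq promoter windows (GRCm38.p6, 250 bases before to 50 after an annotated start) were found for 8 of 11 class II genes looked up. There was none for H2-Ab1, Cd74 or Ciita. The 140 bases before each start are printed 5′ to 3′ on the gene's strand. Capitals mark the Y box core TGATTGG, the X1 box part AACNGATG and the X2 box core TGACGT, each searched on both strands. The windows lie on chromosome 17 at chr17:34287824-34287963 (minus strand, H2-Aa), chr17:34305727-34305866 (plus, H2-Eb1), chr17:34153051-34153190 (plus, H2-DMb1), chr17:34092239-34092378 (plus, H2-Oa) and chr17:34122692-34122831 (plus, the first of 2 annotated starts of H2-DMa).
H2-Aa: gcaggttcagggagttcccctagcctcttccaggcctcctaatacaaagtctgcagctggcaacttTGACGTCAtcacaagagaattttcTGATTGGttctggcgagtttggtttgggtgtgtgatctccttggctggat
H2-Eb1: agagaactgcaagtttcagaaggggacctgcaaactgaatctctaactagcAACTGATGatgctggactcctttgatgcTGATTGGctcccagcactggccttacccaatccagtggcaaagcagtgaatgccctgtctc
H2-DMb1: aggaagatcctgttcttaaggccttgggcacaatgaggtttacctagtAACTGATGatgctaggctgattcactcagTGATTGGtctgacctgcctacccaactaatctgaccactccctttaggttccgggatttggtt
H2-Oa: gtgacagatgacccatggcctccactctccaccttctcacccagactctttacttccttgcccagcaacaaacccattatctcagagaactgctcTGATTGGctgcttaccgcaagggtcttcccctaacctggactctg
H2-DMa: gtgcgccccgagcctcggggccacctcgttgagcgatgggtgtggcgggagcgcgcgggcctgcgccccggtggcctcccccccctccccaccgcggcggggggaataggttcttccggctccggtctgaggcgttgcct

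The Y box core was found once in the window of 7 of these 8 genes, always on the gene's own strand. It also occurs in 7.82% of the 32851 RefSeq windows of the same length. The first base of the core lay 50 bases before the start in H2-Aa, 61 in H2-Eb1, 63 in H2-DMb1 and 45 in H2-Oa. In the paralogs that are not members, the distance was 59 bases in H2-Ob, 92 in H2-DMb2 and 102 in H2-Eb2. The X1 part, which occurs in 2.32% of all windows, was found in 4 of the genes. It began 28 bases before the Y core in H2-Eb1 and H2-Eb2 and 29 bases before it in H2-DMb1 and H2-DMb2, so the spacing was nearly the same at all 4. H2-Aa held the X2 core, 24 bases before its Y core and on both strands because the letters form a palindrome with the next bases. The X2 core occurs in 7.51% of windows. The windows at both annotated starts of H2-DMa held none of these letters. Only these starts were searched, and which start the cells use was not measured. The letters may therefore stand at another start of H2-DMa, and their absence here is not a trait of the gene. The motifs were chosen after the sequences were read, and a match is a description of letters, not of binding.

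**Figure D1:**
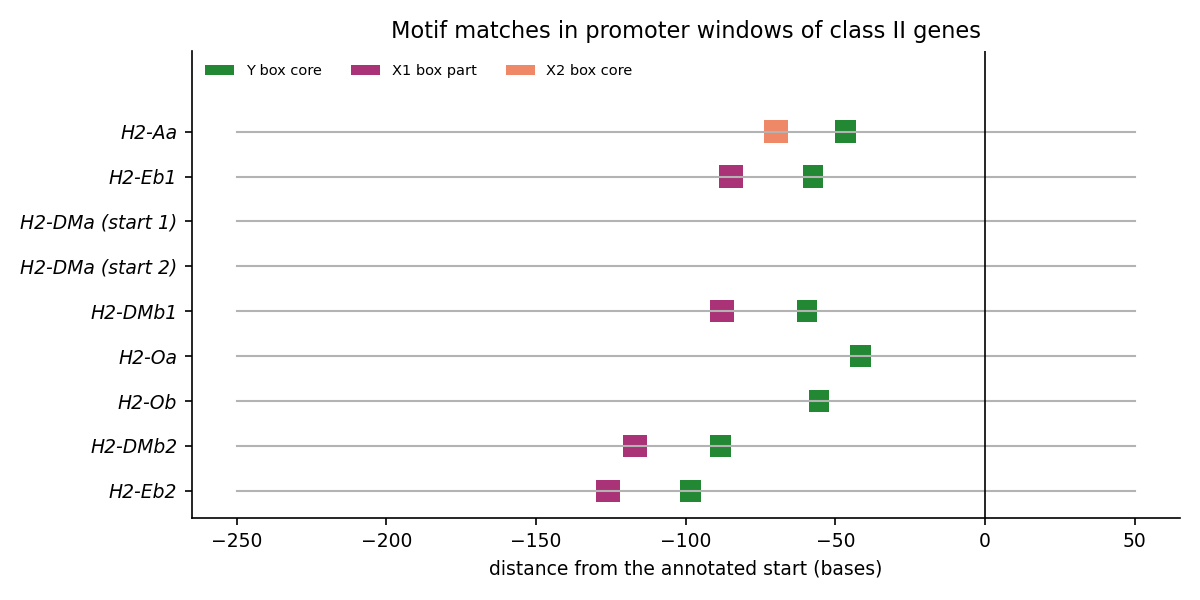
Positions of motif matches in RefSeq promoter windows of class II genes, as distance in bases from the annotated start (vertical line). Each grey line is a window of 300 bases and each bar a match: the Y box core stands in 7 of 8 genes, and the X1 part in 4, at a spacing of 28 or 29 bases.

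Most class II members gave signals above antigenomic background but within the range of the negative control features, in both groups. Values are log2 signals, and 23 antigenomic features, whose probes match no genomic sequence, gave a background of 6.35 at their 95th percentile, averaged over the arrays. Of the 7 members, 6 exceeded this percentile on all 4 arrays, as did 39.6% of all gene features, and Ciita was below it on every array. The array also holds 5222 features named as negative controls, and the sources used here do not say what they target. Against their 95th percentile, 9.96 on average, 0 of the 7 members passed on any array, while 18.9% of gene features passed on all 4. H2-Oa exceeded between 85.9% and 88.3% of the negative control features, and H2-Eb1 exceeded between 58.6% and 66.1%. Among all gene features, H2-Aa, H2-Ab1 and H2-Oa exceeded between 67.7% and 71.8%, H2-Eb1 between 58.8% and 61.3%, and Ciita between 40.9% and 50.1%. Probes differ in brightness, so no order of abundance between genes is read from these values. In the same RNA the CD8 chain gene Cd8a gave 16.66 and 16.68 in control and 16.58 and 16.57 in spermidine arrays.

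**Figure D2:**
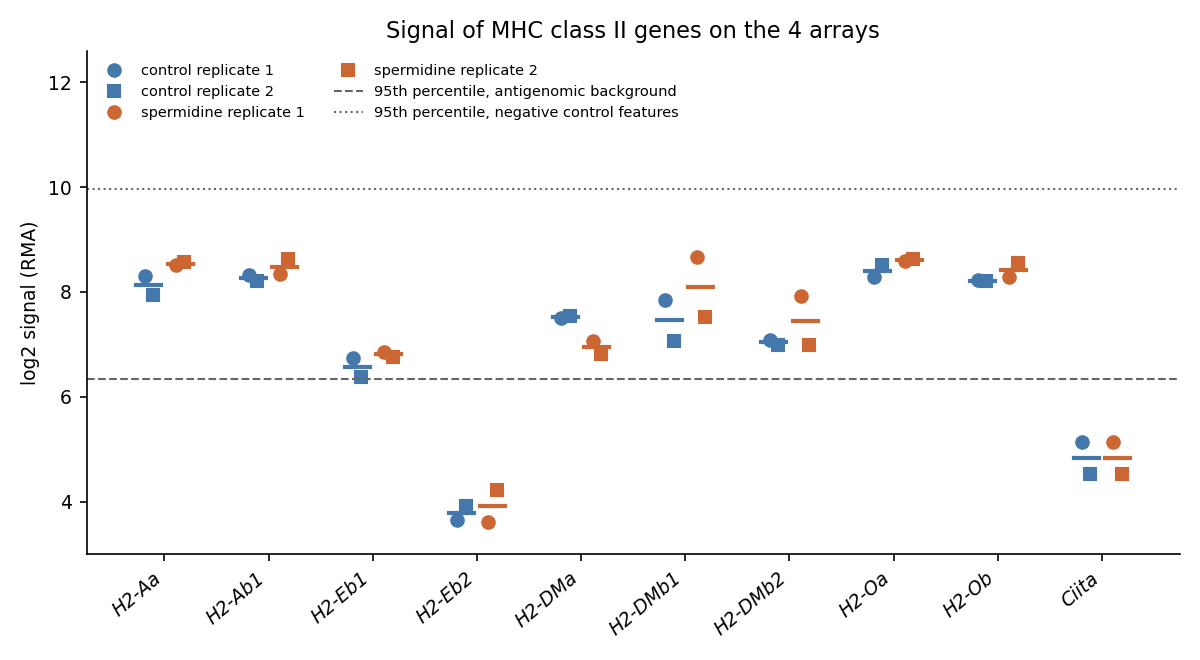
Log2 signal of the 7 measured members and of H2-Eb2, H2-DMb2 and H2-Ob on each array. Points are single arrays, with circles for replicate 1 and squares for replicate 2, and short bars are group means. All points lie below the dotted line at 9.96, and those of Ciita and H2-Eb2 lie below the dashed line at 6.35.

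The classical chains gave slightly higher signals in the spermidine cultures. H2-Aa, the alpha chain of I-A, stood at 8.31 and 7.95 in control and at 8.51 and 8.57 in spermidine arrays. The groups did not overlap, and the control arrays differed from each other more than the spermidine arrays did. The difference was 0.41 ± 0.24 (SE) on the log2 scale, a 1.33-fold higher signal, with a 95% interval from -0.13 to 0.95 and an adjusted p of 0.767 (limma). Without control replicate 2 it was 0.23. In bulk RNA, fewer cells of a type and less RNA per cell cannot be told apart, here and in every value that follows.

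H2-Ab1, the beta chain that pairs with H2-Aa, stood at 8.32 and 8.20 in control and at 8.35 and 8.62 in spermidine arrays. The groups were separated by 0.030, less than the gap between the arrays of either group. The log2 difference was 0.23 ± 0.23 (SE), with a 95% interval from -0.30 to 0.76, and 0.092 without spermidine replicate 2. H2-Eb1, the I-E beta chain, stood at 6.74 and 6.38 against 6.86 and 6.76 with spermidine. C57/BL6 mice carry a defective gene for the I-E alpha chain, so I-E does not reach their cell surface. Its groups were separated by 0.020, and the log2 difference of 0.25 ± 0.24 (SE), with a 95% interval from -0.30 to 0.79, became 0.069 without control replicate 2. The adjusted p was 0.875 for H2-Ab1 and 0.867 for H2-Eb1 (limma). The differences of these 3 chains were thus in 1 direction, and each interval included 0.

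The genes of the peptide exchange factor H2-DM had values of opposite sign, neither of which passed, and the difference between them was not tested. H2-DMa, which encodes its alpha chain, stood at 7.51 and 7.55 in control and at 7.06 and 6.82 in spermidine arrays. Both spermidine arrays were below both control arrays, by a gap of 0.45, whereas the control arrays lay within 0.044 of each other. The log2 difference was -0.59 ± 0.23 (SE), a 1.5-fold lower signal, with a 95% interval from -1.11 to -0.07. Its unadjusted p was 0.0312 and its adjusted p over all features 0.685 (limma), so the difference did not pass. With 1 array left out the H2-DMa difference ran from -0.47 to -0.71, a sign already fixed by groups that do not overlap.

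H2-DMb1, the beta chain gene, had the widest spread of the measured members. It stood at 7.85 and 7.06 in control and at 8.66 and 7.53 in spermidine arrays, so the groups overlapped. Replicate 1 was above replicate 2 in both groups, by 0.79 in control and 1.13 with spermidine. The log2 difference of 0.64 ± 0.41 (SE), adjusted p = 0.803 (limma), had a 95% interval from -0.31 to 1.58. It rested on single arrays: leaving out control replicate 1 gave 1.03 and leaving out spermidine replicate 2 gave 1.20, while 0.24 was left without control replicate 2 and 0.069 when spermidine replicate 1 was dropped. The neighbouring paralog H2-DMb2 stood at 7.09 and 6.99 in control and at 7.92 and 6.99 in spermidine arrays. Spermidine replicate 1 was its high array, with the other 3 between 6.99 and 7.09, and the log2 difference was 0.41 ± 0.32 (SE). Probes for close paralogs can share targets, so the split of signal between H2-DMb1 and H2-DMb2 is uncertain.

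H2-Oa encodes the alpha chain of H2-O, which in mice is found mainly in B cells and thymic epithelium. It stood at 8.29 and 8.52 in control and at 8.59 and 8.62 in spermidine arrays. The groups were separated by 0.076, and the log2 difference was 0.20 ± 0.22 (SE), with a 95% interval from -0.32 to 0.72. Its adjusted p was 0.893 (limma), and it was 0.089 without control replicate 1. The beta chain gene H2-Ob, no member, stood at 8.23 and 8.20 against 8.28 and 8.55, a log2 difference of 0.20 ± 0.23 (SE). Both chains of H2-O therefore gave a small difference of the same sign, within the error.

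Ciita showed no difference between the groups that could be read. It stood at 5.14 and 4.53 in control and at 5.14 and 4.52 in spermidine arrays, all below the antigenomic percentile. The array pairs with the same replicate number were nearly equal, and the replicates of a group differed by 0.61 and 0.62. The log2 difference was -0.00 ± 0.31 (SE), with a 95% interval from -0.71 to 0.71. At this level a transcript may be absent or below detection, and these signals do not tell which. Its sign turned with the array left out, at 0.30 without control replicate 1 and -0.30 without control replicate 2.

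**Figure D3:**
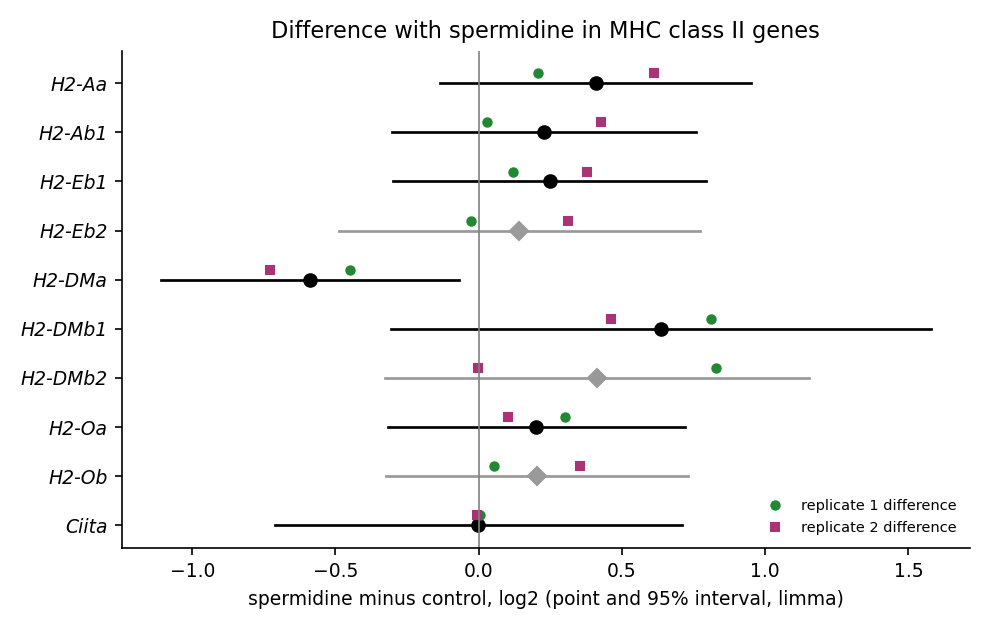
Difference between spermidine and control on the log2 scale, with the 95% interval from limma, for the members (black) and for 3 further class II chains (grey). Small points are the differences between arrays of the same replicate number; only the interval of H2-DMa does not include 0, before adjustment.

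Over the members as a group, 0 of 7 passed an adjusted p of 0.05 in limma, against 0% of the 22206 gene features tested. At an unadjusted p under 0.05 there was 1 member, H2-DMa, in the lower direction, where 3.64% of all features were called, and 0 in the higher direction, where 3.38% were. In either direction 1558 features, or 7.02%, had such a p. The groups did not overlap in 4 members that were higher with spermidine, H2-Aa, H2-Ab1, H2-Eb1 and H2-Oa, against 18.3% of all features. After each array was centred on its median this held for H2-Aa and H2-Oa only. They did not overlap in 1 member that was lower, H2-DMa, against 18.4% of all features. The log2 difference was positive in 5 of 7 members and in 49.1% of all features. The median log2 difference of the members was 0.23 and that of all gene features -0.01. The members were chosen with earlier results of these arrays known, and genes measured on the same arrays are not replicates, so these counts are a description.

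Along chromosome 17 the RefSeq order is H2-Oa, H2-DMa, H2-DMb2, H2-DMb1, Tap1, Tap2, H2-Ob, H2-Ab1, H2-Aa, H2-Eb1 and H2-Eb2. The only negative class II value in this stretch, H2-DMa at -0.59, thus stands between H2-Oa at 0.20 and H2-DMb2 at 0.41. Tap1 and Tap2, the peptide transporter genes of the class I route lying inside the class II region, stood at log2 differences of -0.13 and -0.28.

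The factors that bind class II promoters were measured in full, at signals above the antigenomic percentile on all arrays. Of the 7 genes for RFX, NF-Y and CREB1, 0 passed the adjusted threshold in either direction (limma) and 0 had an unadjusted p under 0.05, and the median log2 difference was -0.12. Rfx5, a DNA-binding subunit of RFX, stood at 9.45 and 10.01 in control and at 10.41 and 10.09 in spermidine arrays (0.52 ± 0.27, SE). Nfyc, a subunit of the factor that binds the Y box, stood at 11.46 and 11.36 against 10.99 and 10.82 (-0.51 ± 0.22, SE). Creb1, whose product can bind the X2 box, differed by -0.21 ± 0.22 (SE). The groups did not overlap in 1 gene that was higher, Rfx5, against 18.3% of all features, and in 2 that were lower, Nfyc and Creb1, against 18.4%.

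Interferon gamma induces Ciita in many cell types, and 7 genes of that route were measured. None passed the adjusted threshold in limma, 0 had an unadjusted p under 0.05, and the median log2 difference was 0.07. Ifng itself stood at 8.53 and 8.24 in control and at 8.35 and 8.13 in spermidine arrays, which overlapped. The largest statistics belonged to the kinase gene Jak1 (0.29 ± 0.24, SE) and the feedback inhibitor Socs1 (-0.26 ± 0.28, SE).

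The genes that prepare antigen and remove class II were mixed. Of the 7 measured, 0 passed the adjusted threshold and 0 had an unadjusted p under 0.05 (limma), with a median log2 difference of 0.05. Ifi30, the lysosomal thiol reductase, stood at 11.18 and 10.76 in control and at 10.67 and 10.44 with spermidine, a difference of -0.41 ± 0.25 (SE). The asparaginyl protease gene Lgmn differed by -0.44 ± 0.25 (SE), and Marchf1, a ubiquitin ligase that takes class II off the surface, by 0.39 ± 0.25 (SE). Both lay below the antigenomic percentile on every array, where the size of a difference is no measure of a fold.

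The class I route had the opposite sign. All 6 measured genes had negative log2 differences, against 50.9% of all features, with a median of -0.18, and 0 passed the adjusted threshold or an unadjusted p under 0.05 (limma). In 1 of the 6 the sign was positive after cyclic loess normalization, and likewise with spermidine replicate 1 or spermidine replicate 2 left out. The groups overlapped in 3 of the 6 and did not overlap in 3, all lower, against 18.4% of all features. For B2m, the shared light chain, named after its values were seen, both control arrays stood at the highest value on those arrays, 19.93, so its difference may be bounded there. H2-D1, a class I heavy chain, stood at 14.91 and 14.44 in control and at 14.36 and 13.97 with spermidine (-0.51 ± 0.27, SE), and its probes may share targets with other class I genes. The loading factor Tapbp differed by -0.24 ± 0.24 (SE). Whether the class I and class II differences differ from each other was not tested. Among 3 costimulatory ligands of antigen-presenting cells, 0 passed the adjusted threshold (limma). Cd80 stood at 13.34 and 13.67 in control and at 14.01 and 14.20 with spermidine (0.60 ± 0.24, SE). Its unadjusted p was 0.0352 and its adjusted p 0.690 (limma), where 3.38% of all features were higher at an unadjusted p under 0.05. Its groups did not overlap, against 18.3% of all features in that direction, while Cd86 and Cd40 overlapped between groups (0.21 ± 0.24 and -0.33 ± 0.30, SE).

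Markers of other cells that make class II are given beside these values, and their part in the class II differences was not tested. Of 11 measured B cell markers, 10 had positive log2 differences (median 0.34), against 49.1% of all features. Of the 11, 0 passed the adjusted threshold in limma, and 2 were higher at an unadjusted p under 0.05, against 3.38% of all features. The groups did not overlap in 5 of them, all higher, against 18.3% of all features. Their linear signals summed to 971 and 913 in control and to 1485 and 1060 in spermidine arrays. Over the 7 class II members it was 1504 and 1335 against 1767 and 1594. Such sums weigh bright features most. The highest signals of these lists, 8.59 for the B cell marker Bank1 and 8.66 for H2-DMb1, were both in spermidine replicate 1. Cd79a, a signalling chain of the B cell receptor, stood at 6.44 and 6.50 in control and at 7.40 and 7.15 with spermidine (0.81 ± 0.23, SE), Ebf1 differed by 0.52 ± 0.22 (SE) and Cd22 by 0.94 ± 0.30 (SE). Ms4a1, Cd22, Pax5, Blk, Cr2 and Fcrla were below the antigenomic percentile on all arrays. No marker is at 0, because the deposited values hold no zeros. Without spermidine replicate 1, the number of positive B cell markers was 6 and their median 0.13.

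Bank1, a B cell adaptor gene named after its values were seen, stood at 7.64 and 6.94 in control and at 8.59 and 7.29 with spermidine. Its replicate 1 was the higher array in both groups, as in the members H2-DMb1, H2-Eb1 and Ciita, of which Ciita lay below background. This was not so in the members H2-Aa, H2-Ab1, H2-DMa and H2-Oa. Replicate 1 was also higher in both groups for the B cell markers Ms4a1, Cd79b, Pax5, Cr2 and Fcrla, but not for Cd79a, Cd22, Blk, Fcer2a and Ebf1. The share of all features with this order is not given, so no link between these genes is read from it. All 8 measured macrophage and monocyte markers and all 10 dendritic cell markers lay below the antigenomic percentile on every array. Their medians were -0.04 and 0.20, 0 of either list passed the adjusted threshold, and 1 of each was higher at an unadjusted p under 0.05, against 3.38% of all features (limma). Log2 differences were positive in 4 of 8 and in 8 of 10, against 49.1% of all features. The groups did not overlap upward in 3 and 4, against 18.3% of all features, and downward in 3 and 0, against 18.4%. Lyz2 (0.86 ± 0.24, SE), Fcgr1 (-0.50 ± 0.23) and Itgam (-0.41 ± 0.23) had the largest statistics of the first list, and Fscn1 (1.14 ± 0.26), Ccl17 (0.51 ± 0.27) and Itgax (0.27 ± 0.25) of the other. Their summed linear signal was 120 and 107 in control and 117 and 127 with spermidine for the macrophage list, and 148 and 184 against 203 and 199 for the dendritic cell list. The 7 measured CD8 T cell markers were above the antigenomic percentile on all arrays, with a median of -0.17. Differences were negative in 6 of 7, against 50.9% of all features, and 0 passed the adjusted threshold or an unadjusted p under 0.05 (limma). The groups did not overlap downward in 4, against 18.4% of all features, and upward in 1, against 18.3%. This moved with normalization: 3 of 7 were positive after further quantile normalization, and 1 did not overlap downward after cyclic loess. Cd8b1, Cd3e and Cd3d differed by -0.34 ± 0.23, -0.33 ± 0.29 and -0.21 ± 0.22 (SE), and Zap70, the positive one, by 0.20 ± 0.22 (SE). Of 3 measured CD4 T cell markers, Zbtb7b differed by 0.76 ± 0.26 (SE), Cd40lg by -0.15 and Cd4 by -0.06, and 0 passed (limma). Cd4 signals were 7.11 and 6.84 in control and 6.59 and 7.24 with spermidine.

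**Figure D4:**
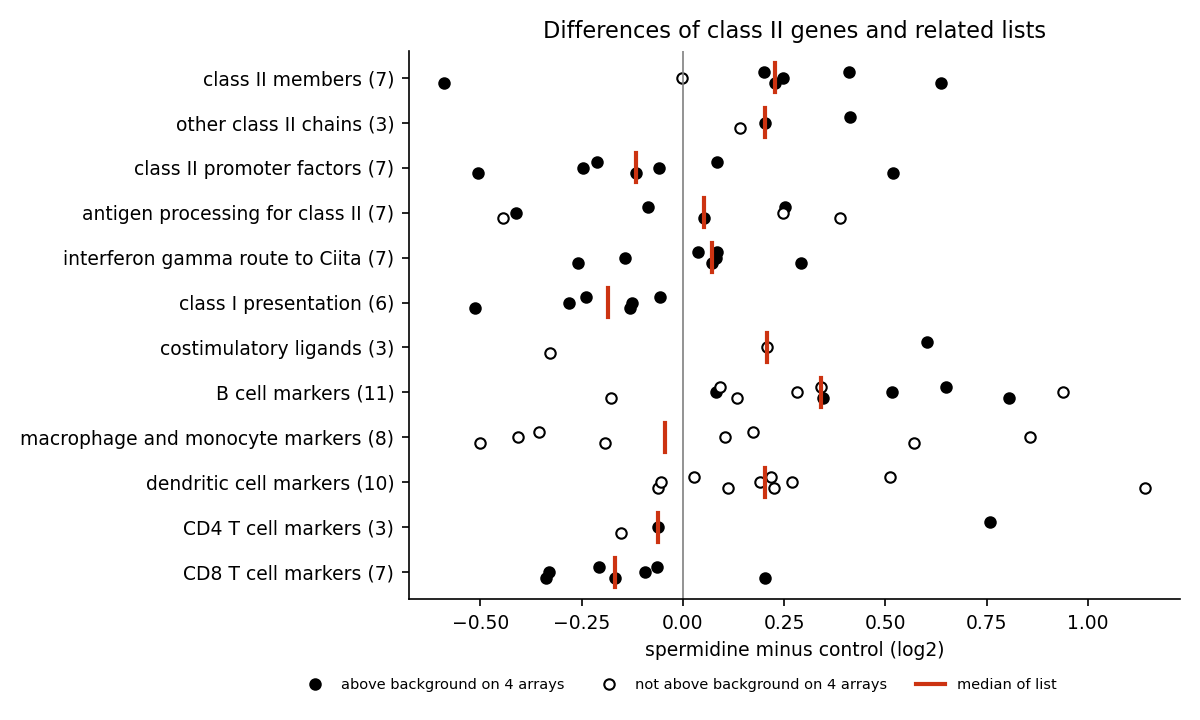
Log2 difference between spermidine and control for every measured gene of the class II members and of the related lists, with the number of genes in brackets. Filled points were above the antigenomic 95th percentile on all 4 arrays, open points were not, and red bars are list medians: 0.23 for the members, 0.34 for B cell markers and -0.18 for class I genes.

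The genes whose signals ran most like the mean profile of the members over the 4 arrays were Mrpl32, Rpusd2, Ptpn23, Golga7 and Fyttd1. Likeness was the Euclidean distance between mean-centred log2 profiles, over 8152 candidate features above background, against the mean profile of the 6 members above background. The distances ran from 0.031 to 0.045, where the median candidate stood at 0.467. That mean profile was -0.21 in control replicate 2, 0.02 in control replicate 1, 0.00 in spermidine replicate 2 and 0.19 in spermidine replicate 1. The mitochondrial ribosomal gene Mrpl32, the nearest, had signals of 8.75 and 8.55 in control and 8.96 and 8.73 with spermidine. Single members need not follow the mean profile: H2-DMa was lower with spermidine, and the members' own distances to that mean are not given. With 4 arrays such closeness is a description of these values.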

How the data were processed

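Gene expression was measured on 4 one-colour Clariom S mouse arrays, 2 per group, grouped by sample title. The deposited log2 signals come from RMA, run by the authors in Affymetrix Expression Console according to the submitters' processing notes; versions and annotation build are not given in the sources used here. RMA adjusts for background, brings the arrays' distributions together and combines the probes of a feature, which compresses differences of dim features. That the scale is log2 was inferred from the values, whose highest lie between 19.74 and 19.93 on the arrays. Whether signals were rescaled is unknown, so folds hold on the deposited scale, on which array medians ran from 5.13 to 5.25.

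Of 28846 features, 6640 controls were set aside. The platform annotation gave 19572 of the 22206 gene features 1 symbol, 0 several and 2634 none. All gene features were fitted with limma 3.58.1 in R 4.3.3 (lmFit, eBayes, no block, two-sided, 5.96 prior and 2 residual degrees of freedom), with Benjamini-Hochberg adjustment over all of them calls being made at 0.05. Standard errors had a median of 0.246. With 2 arrays a group, exact permutation cannot give less than p = 0.333 and was not used. Arrays have no sequencing depth, and their number limits the precision. The fit was run on data simulated from its own prior, with changes larger than the difference of any member. That run checks the computation and lends no support to the members' values.

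The members and lists were chosen with earlier results of these data known. All members were named, with the 3 genes of largest absolute statistic in each list, genes a statement turned on, and the 5 features nearest the members' mean profile. For that search, predicted, microRNA, snoRNA, olfactory, vomeronasal and antigen receptor genes were left out. Of 89 list genes 79 were measured. Alternatives were other normalizations, priors, filters, array weights, the replicate number as a block, each array left out and other background levels.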

Additional observations from a re-analysis of the deposited data

How the results depend on the processing

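None of the 7 measured members passed the adjusted threshold under any alternative run, with adjusted p between 0.371 and 1, and 94 of 96 alternative values kept the member's sign. The 2 exceptions were Ciita, which ran from -0.31 to 0.31 with 1 array left out and was positive when control replicate 1 (0.30) or spermidine replicate 2 was left out (a lone array was assumed to vary like the other group). Ciita was too dim for both fits filtered on signal. The median difference of the members ran from 0.17 to 0.30 with 1 array left out. Each symbol had 1 feature, so averaging features changed nothing. The block, the intensity trend, the robust prior, both filters and array weights also left each fitted difference unchanged to rounding. The signs under those settings could therefore not turn. Where groups did not overlap, leaving out 1 array could not turn the sign either. The count of features past the adjusted threshold, 0, became 1 after median centring, cyclic loess, an intensity trend, and both filters on dim features, and stayed 0 without any 1 array. The unadjusted count of 1558 became 942 among features above background, where fewer were tested, and ran from 795 to 2324 without 1 array. With the replicate number as a block it became 2350, and 1 feature passed the adjusted threshold, not a member; deviations of same-numbered arrays correlated at 0.21 over features, but the labels do not say that a number marks a shared source, so the samples share only a number. Members whose groups did not overlap upward numbered 2 in place of 4 after median centring and 4 to 6 without 1 array. Downward there were 1 to 2. A group of 1 array escapes overlap more easily, and the shares of all features under these settings are not given. The counts without 1 array therefore cannot be set against the main count. The number of members above background, 6, became 0 against the 95th percentile of negative control features, a level chosen after seeing the data, and stood at 5 against the 99th antigenomic percentile and 6 against the median gene feature. The causes of these shifts were not tested. Signal over background limits what can be read for Ciita, below it, and H2-Eb1, whose group means lay 0.25 and 0.43 above it.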
